A study of Mus musculus with 8 samples.

Results

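Messenger RNA for 10 integrin subunits, Itga1, Itga5, Itga6, Itga7, Itga8, Itga11, Itgav, Itgb1, Itgb3 and Itgb5, was followed in 4 groups of mouse stromal cells on Affymetrix Mouse Genome 430 2.0 arrays. The subunits were matched by gene symbol in the annotation of the array. Of the 10 genes, 9 had at least 1 probe set, 28 in all, and 8 passed the filter on low values, of the 18194 genes named and the 10084 tested. Itga11 was not matched to a probe set and is named only, and the single probe set of Itga7 stayed below the filter in every group.

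The groups had 2 arrays each. OP9 is a stromal line of mouse bone marrow, labelled strain B6C3F1, and it was measured alone and after co-culture with 230-238, a line of pre-B cells. NIH3T3, an embryonic fibroblast line, and MC3T3, an osteoblast-like line, are both labelled Balb/c and carried no treatment. The growth protocol in the labels names OP9 Strawberry, OP9 cells that carry a retrovirus for the red protein mStrawberry, and the study describes separating such cells from B cell progenitors by this colour after trypsin and EDTA. Its control for the co-culture had conditioned medium, but the labels call the arrays without pre-B cells an OP9 culture and do not say whether these cells were sorted or had that medium. If they had neither, the sort and the medium would be part of every co-culture difference and cannot be told apart from it here. OP9 was grown in another medium than NIH3T3 and MC3T3, so that line and medium cannot be told apart, and one of the MC3T3 arrays is described in the labels as sorted cells. Each line is a single established line, so that the groups stand for lines and not for stroma of an animal.

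Integrins are receptors of the cell surface made of an alpha and a beta chain, which tie the matrix and other cells to the actin skeleton. The alpha chain mostly sets the ligand, and the beta chain carries the tail that binds talin and kindlin, the proteins that switch the receptor on. The chains alpha 1 and alpha 11 pair with beta 1 and bind collagens, alpha 6 and alpha 7 bind laminins, and alpha 5, alpha 8 and alpha v bind ligands with the tripeptide RGD such as fibronectin, nephronectin and vitronectin. In marrow the integrins of the B cell, above all alpha 4 beta 1, hold on to Vcam1 on stromal cells, and the integrins of the stroma hold on to the matrix.

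Levels are given as linear intensities that the authors had normalized between arrays. Where several probe sets measured a gene, the one with the highest mean log2 value stood for it. Tests covered the genes that reached 100 on 2 or more of the 8 arrays, and higher or lower is called where the adjusted p was below 0.05 and the fold was 2 or more (limma, Benjamini-Hochberg over all 10084 genes). Array medians lay at 41.8 to 45.0, and on each array 34.3 to 36.3% of the 45101 probe sets reached 100. Replicates are called biological in the labels, nothing says that they came from separate cultures, and the p-values therefore measure the spread between arrays, which may be technical. The NIH3T3 pair was the widest, with 61 genes over 2-fold between its arrays against 0 to 2 genes in the other groups. Probes of different genes bind with different strength, so that levels are compared between groups for a gene and not between genes.

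Itga1, the alpha chain of a collagen receptor, was highest in OP9 cells. Its intensity was 165 and 174 on the OP9 arrays, 49.8 and 88.7 after co-culture, 24.2 and 43.6 in NIH3T3 and 22.7 and 16.8 in MC3T3 cells. No array of another group came near the OP9 pair, and the co-culture arrays lay between OP9 and the other lines. Against NIH3T3 the OP9 level was 5.21-fold higher (log2 2.38 ± 0.33 SE, adjusted p = 3.1e-04, limma). Against MC3T3 it was 8.67-fold higher (log2 3.12 ± 0.33 SE, adjusted p = 9.8e-05, limma). Co-cultured OP9 cells were still 2.04-fold above NIH3T3 cells (adjusted p = 0.0227, limma), whereas NIH3T3 and MC3T3 did not pass the test against each other (adjusted p = 0.0794, limma). The gene passed the filter through the OP9 arrays alone and so had to be high there. In arrays of whole cell populations, fewer cells with a transcript and less RNA per cell cannot be told apart.

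**Figure D1:**
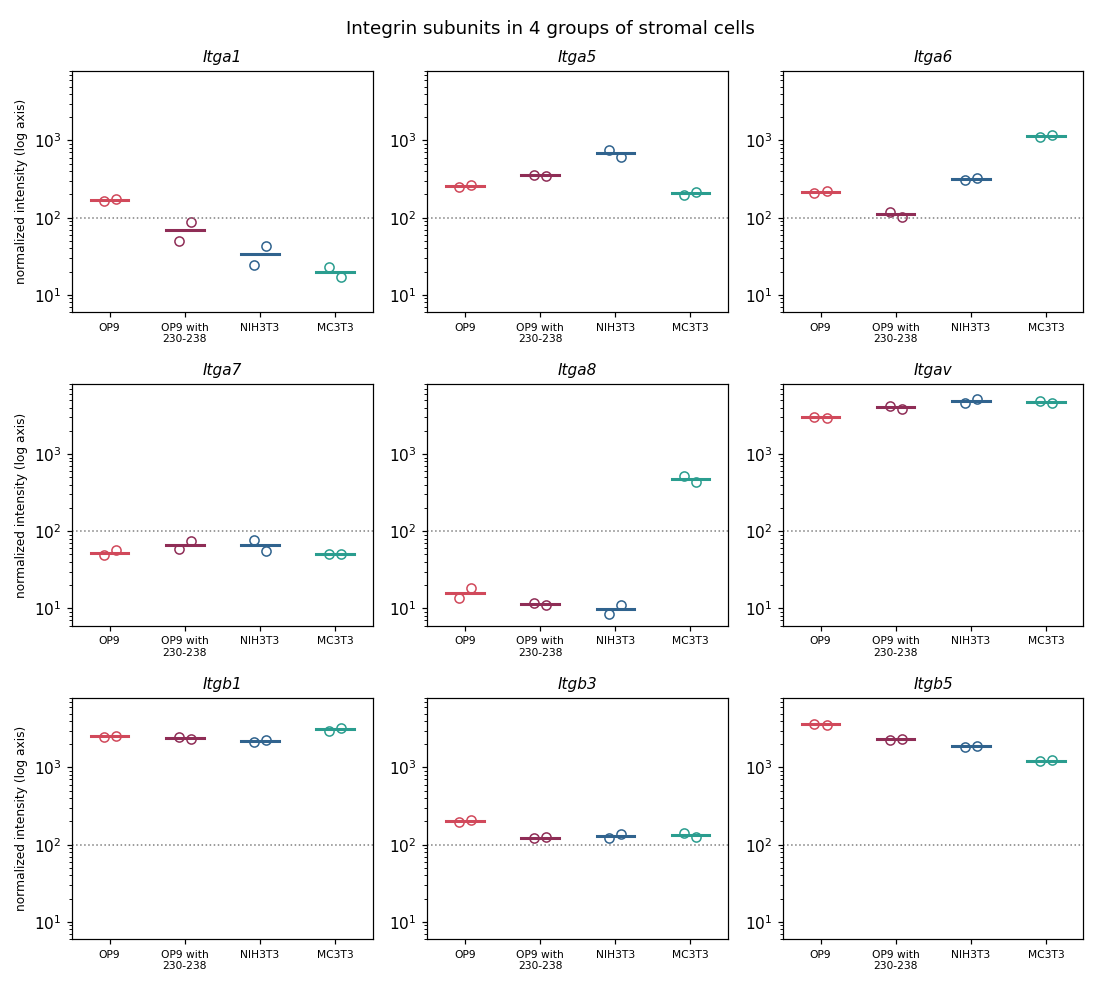
Normalized intensity (log axis) of the probe set that represents each of 9 integrin subunits in OP9, OP9 with 230-238, NIH3T3 and MC3T3 cells. Circles are arrays, bars the mean of the 2 arrays of a group, and the dotted line the level of 100 used in the filter. Itga1 stands highest in OP9, Itga6 and Itga8 in MC3T3 and Itga5 in NIH3T3 cells, while Itga7 stays below 100 on every array.

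Itga6, a laminin receptor chain that pairs with beta 1 or beta 4, had its highest level in MC3T3 cells. The values were 1119 and 1191 in MC3T3, 309 and 327 in NIH3T3, 209.5 and 219 in OP9 and 119 and 103 in co-cultured OP9 cells. The 4 groups formed 4 separate steps, and each step down passed the test (adjusted p = 8.6e-07, 5.8e-04 and 1.7e-04, limma). The MC3T3 level exceeded that of NIH3T3 by 3.63-fold and that of OP9 by 5.39-fold. The drop from OP9 to co-culture was 1.94-fold (log2 -0.95 ± 0.09 SE), just under the 2-fold minimum, and it brought the gene to the level of the filter. For Itga7, the laminin receptor chain known from muscle, the 8 arrays read between 49.0 and 76.9 and no test was made.

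Itga8, the chain of the nephronectin receptor that is known from kidney development and smooth muscle, was a transcript of MC3T3 cells in this series. It read 511 and 439.9 in MC3T3 cells, and 13.5 and 18.4 in OP9, 11.9 and 11.1 in co-cultured and 8.5 and 11.0 in NIH3T3 cells. The 3 groups without MC3T3 lay at the bottom of the scale, where a fold depends on the background of the array. The fitted differences were 30.1-fold against OP9 and 49.1-fold against NIH3T3 cells (adjusted p = 2.2e-07 and 9.8e-08, limma), and the gene passed the filter through the MC3T3 arrays alone. The second probe set of the gene, 1427489_at, was at 120.6 and 88.2 in MC3T3 and at 8.6 to 11.9 on the other 6 arrays.

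Itga5, which with beta 1 forms the classical fibronectin receptor, was highest in NIH3T3 cells. The arrays read 746 and 617 in NIH3T3, 356 and 352 in co-cultured OP9, 249.9 and 264 in OP9 and 198 and 216 in MC3T3 cells. All neighbours in this order differed in the test of the probe set that stands for the gene. The adjusted p-values were 6.9e-05, 0.00856 and 0.0254 (limma) from the top step to the bottom. A second probe set passed the middle step alone. The steps were unequal, since the NIH3T3 level exceeded that of OP9 by 2.64-fold and that of MC3T3 by 3.29-fold, while co-culture lay 1.38-fold above OP9 (log2 0.46 ± 0.10 SE).

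Itgav, the chain shared by the vitronectin receptors and by integrins that free TGF beta from its latent form, was lowest in OP9 cells. It read 3046 and 2954 in OP9, 4239 and 3870.3 in co-culture, 4612 and 5079 in NIH3T3 and 4826 and 4612 in MC3T3 cells. NIH3T3 and MC3T3 arrays overlapped, and both lines were above both OP9 groups. OP9 cells were 1.61-fold below NIH3T3 and 1.57-fold below MC3T3 cells (adjusted p = 1.1e-04 and 2.2e-04, limma). Co-culture was 1.35-fold above OP9 (log2 0.43 ± 0.08 SE, adjusted p = 0.00427, limma), on the way to the level of the other lines, and remained 1.19-fold below NIH3T3 cells (adjusted p = 0.0202, limma).

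Itgb1, the common partner of alpha 1, alpha 5, alpha 6, alpha 7, alpha 8 and alpha 11, varied least of the 8 tested subunits. It read 2465 and 2585 in OP9, 2480.1 and 2363 in co-culture, 2153 and 2245 in NIH3T3 and 3006 and 3207 in MC3T3 cells. OP9 and co-culture arrays overlapped, with a difference of log2 -0.060 and a 95% interval from -0.23 to 0.11 (adjusted p = 0.53, limma). The MC3T3 level exceeded that of OP9 by 1.23-fold and that of NIH3T3 by 1.41-fold (adjusted p = 0.00711 and 4.0e-04, limma).

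Itgb3, which pairs with alpha v and is best known from osteoclasts and platelets, was highest in OP9 cells. It read 199 and 206 in OP9, 122 and 124 in co-culture, 121 and 139 in NIH3T3 and 139.8 and 126 in MC3T3 cells. The OP9 arrays stood apart from the other 6, whose groups did not pass the test against their neighbours (adjusted p = 0.731 and 0.474, limma). The OP9 level exceeded that of co-culture by 1.64-fold, that of NIH3T3 by 1.56-fold and that of MC3T3 by 1.52-fold (adjusted p = 6.5e-04, 3.0e-04 and 5.8e-04, limma).

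Itgb5, which also pairs with alpha v, gave the most regular order. It read 3673 and 3589 in OP9, 2291 and 2346 in co-culture, 1864 and 1915 in NIH3T3 and 1202 and 1248 in MC3T3 cells. No groups overlapped and each step passed the test (adjusted p = 2.2e-04, 0.00355 and 5.8e-05, limma). The OP9 level exceeded that of MC3T3 by 2.96-fold (adjusted p = 4.7e-07, limma) and that of NIH3T3 by 1.92-fold (adjusted p = 5.0e-06, limma), the latter just under the 2-fold minimum. Co-culture was 1.57-fold below OP9 (log2 -0.65 ± 0.06 SE).

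The question of the co-culture is what pre-B cells change in the stroma beside them. Among the integrin subunits Itga1 fell, 2.55-fold (log2 -1.35 ± 0.33 SE, adjusted p = 0.0143, limma), from 169.6 ± 6.0 to 69.2 ± 27.5 (SD, n = 2). Itga1 was the 1 of 8 tested subunits called, where 5.67% of all genes were called, 2.71% higher and 2.97% lower. Without the minimum fold 6 of 8 passed, of which Itga1, Itga6, Itgb3 and Itgb5 were lower and Itga5 and Itgav were higher, where 42.8% of all genes passed, and the median of the 8 was log2 -0.55 against -0.053 over all genes. The arrays of OP9 and co-culture did not overlap for 7 of 8, as for 80.6% of all genes. Since Itga1 passed the filter through the OP9 arrays, these counts describe the subunits that passed and say nothing on the others. Itga8, at the bottom of the scale in both groups, did not pass (log2 -0.46, adjusted p = 0.0682, limma). Itgb3 and Itgb5, which pair with alpha v, were thus lower in co-culture while Itgav was higher and Itgb1 was within its spread. The call of Itga1 rests on few arrays. Without co-culture replicate 1 its difference was log2 -0.93 (adjusted p = 0.0916, limma) and Itga6, at log2 -1.06, was called in its place, and without either OP9 array Itga1 no longer passed the filter.

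The comparison of OP9 with NIH3T3, a line described by the study as unable to support B cell development, gave Itga1 as higher and Itga5 as lower in OP9 cells. These were 2 of 8 tested subunits, where 30.8% of all genes were called, 20.5% higher and 10.3% lower. All 8 passed without the minimum fold, as did 77.9% of all genes, with Itga8, Itgb1, Itgb3 and Itgb5 also higher and Itga6 and Itgav also lower in OP9 cells. Itga8 lay at the bottom of the scale in both lines, and its second probe set, 1427489_at, averaged 10.2 in each. With the mean of its probe sets Itga8 did not pass (log2 0.35, adjusted p = 0.0893, limma). The arrays did not overlap for 8 of 8, as for 88.8% of all genes. The median of all genes was log2 0.16 in this comparison, beside which Itgb1 lay at log2 0.20. A second bright probe set of Itgb1, 1426918_at, did not pass (log2 0.11, adjusted p = 0.203, limma). Nor did Itgb1 pass with quantile normalization (log2 0.061, adjusted p = 0.439, limma). Without either OP9 array Itga1 failed the filter and Itga5 alone was called.

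Against MC3T3, Itga1 and Itgb5 were higher and Itga6 and Itga8 lower in OP9 cells, 4 of 8 tested subunits where 19.9% of all genes were called, 10.5% higher and 9.41% lower. Itga1 and Itga8 passed the filter only through the group in which they were high, so that this count is not read against the share of all genes, and the same holds for Itga1 against NIH3T3 and for Itga8 in MC3T3 against NIH3T3 cells. All 8 passed without the minimum fold, as did 66.6% of all genes, and the arrays did not overlap for 8 of 8, as for 87% of all genes. Itga5 and Itgb3 were also higher, and Itgav and Itgb1 also lower, in OP9 cells. Leaving out either MC3T3 array, the sorted one or the other, took Itga8 below the filter, and leaving out either OP9 array did so for Itga1, while Itga6 and Itgb5 were called in each case. OP9 arrays serve in 3 of these comparisons, so that a high or low OP9 level enters all 3.

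MC3T3 and NIH3T3 share no array with OP9. MC3T3 cells had higher Itga6 and Itga8 and lower Itga5, 3 of 8 tested subunits where 27.4% of all genes were called, 17.8% higher and 9.65% lower. Without the minimum fold 5 of 8 passed, as did 74.8% of all genes, with Itgb1 also higher and Itgb5 also lower in MC3T3 cells. The arrays did not overlap for 6 of 8, as for 85% of all genes. The median of all genes was log2 0.12. Itgav (log2 -0.037, 95% interval from -0.23 to 0.15) and Itgb3 (log2 0.036, 95% interval from -0.17 to 0.25) did not pass, and their sign turned with the scaling of the arrays. Itga1 did not pass either, but was called lower (log2 -1.16, adjusted p = 0.00767, limma) without NIH3T3 replicate 1, and Itga8 failed the filter without either MC3T3 array.

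**Figure D2:**
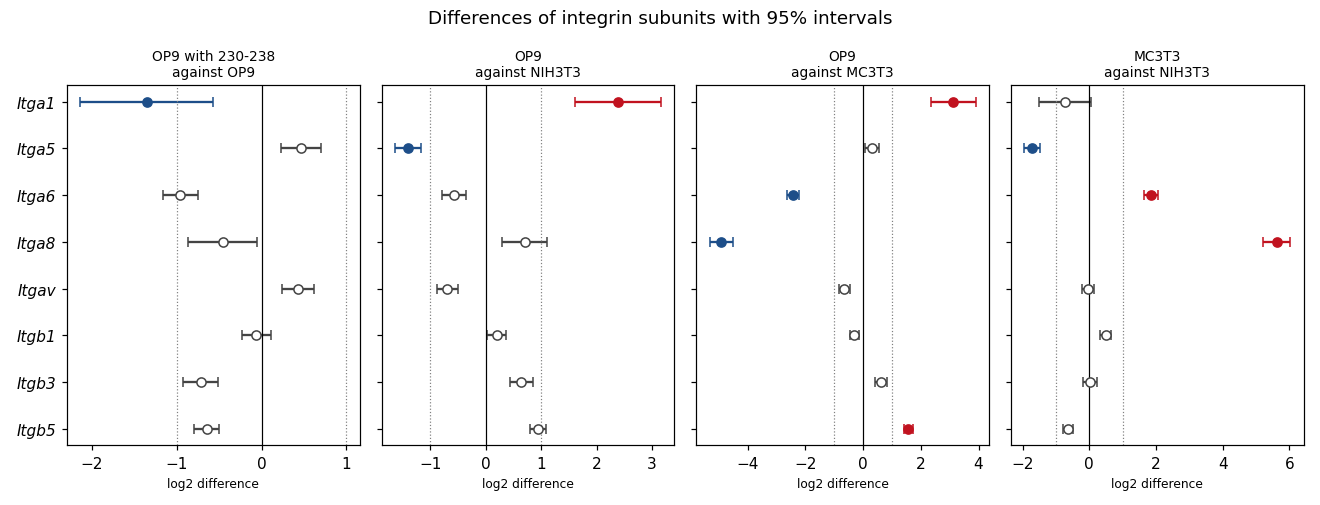
Log2 difference of 8 integrin subunits in 4 comparisons, with the 95% interval of the fit. Filled red circles were called higher and filled blue circles called lower in the group named first, open circles were not called, and dotted lines mark 2-fold. Itga1 is the filled circle of the co-culture panel, and Itga6 lies beside its dotted line.

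Several probe sets of a gene allowed a check within the array. Of the 28 probe sets 18 reached the filter, and the 2 of Itga6, the 2 of Itgb3, the 3 of Itgb1 and the 4 of Itgb5 gave the same sign in each of the 4 comparisons. In co-culture the 4 probe sets of Itgb5 gave log2 -0.62 to -0.73, those of Itga6 -0.91 and -0.95, and those of Itgb3 -0.72 and -0.74. Itga5 was less uniform. Its second probe set, 1423268_at, read 179.7 and 206 in NIH3T3 and 124 and 131 in OP9 cells. It gave log2 -0.60 where the first, 1423267_s_at, gave -1.40, and it was not called. In MC3T3 against NIH3T3 cells it gave log2 -0.82, where the first gave -1.72, and was not called either. It did not pass in co-culture against NIH3T3 cells (log2 -0.19, adjusted p = 0.0859, limma) or in OP9 against MC3T3 cells (log2 0.22, adjusted p = 0.0655, limma). For Itgav the dimmer probe set 1421198_at was called lower in OP9 than in MC3T3 cells (log2 -1.35, adjusted p = 6.5e-04, limma), where the brightest, 1452784_at, gave log2 -0.65. In co-culture the brightest alone passed, and 1421198_at and 1432296_a_at gave log2 0.31 and 0.20 (adjusted p = 0.252 and 0.379, limma). For Itgb5 1456195_x_at was called higher in OP9 than in NIH3T3 cells (log2 1.22, adjusted p = 8.2e-06, limma), while its other 3 probe sets gave 0.87 to 0.94.

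**Figure D3:**
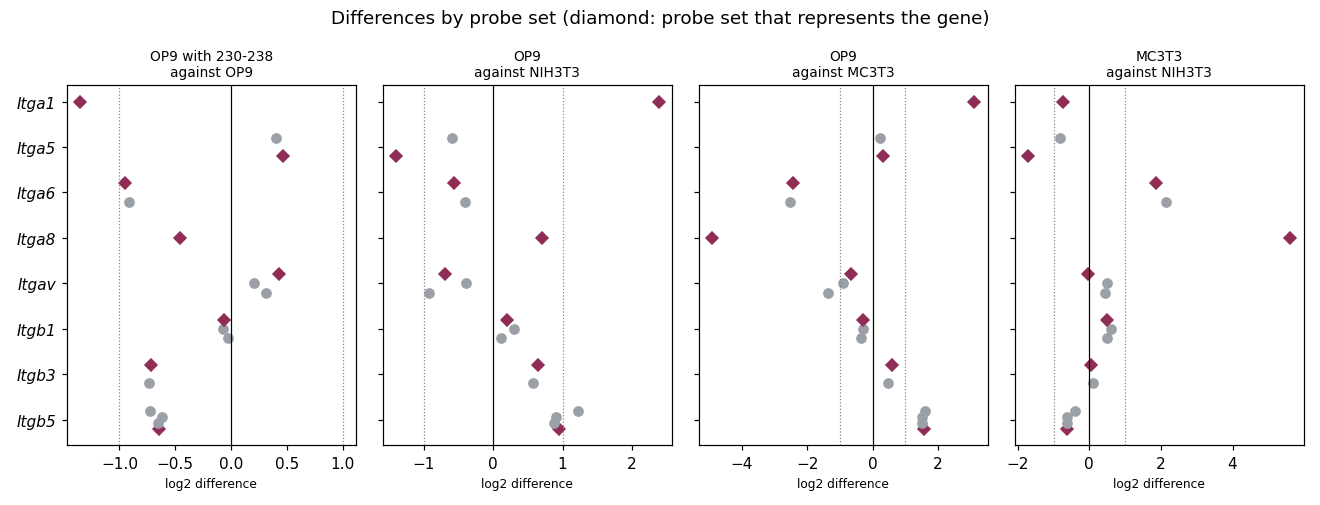
Log2 difference of every probe set of the integrin subunits that passed the filter, in 4 comparisons. Diamonds are the probe sets that represent a gene, grey circles its other probe sets, and dotted lines mark 2-fold. The probe sets of Itgb5 and Itga6 cluster, while those of Itga5 spread in both comparisons with NIH3T3 cells.

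The stretches of 250 bases before the start of transcription are shown for the subunits that moved in opposite directions in co-culture, Itga1 and Itgb5 with lower and Itga5 and Itgav with higher levels (RefSeq, build GRCm38.p6, written 5′ to 3′ on the strand of the gene). The promoters of 7 of the 10 subunits were in the table, and those of Itga6, Itga7 and Itgb3 were not. Capitals mark matches to 5 motifs searched on both strands, namely the GC box GGGCGG, the CCAAT box of that sequence, the TATA box TATAAA, the AP-1 site TGACTCA and a site of the NF-kB type, GGGA followed by any 4 bases and CC.
Itga1, chr13:115101965-115102214, minus strand: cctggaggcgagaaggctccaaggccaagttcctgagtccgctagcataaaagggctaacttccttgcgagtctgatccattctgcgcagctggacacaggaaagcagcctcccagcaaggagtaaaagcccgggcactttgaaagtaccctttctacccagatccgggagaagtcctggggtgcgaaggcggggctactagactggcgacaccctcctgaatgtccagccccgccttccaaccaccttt
Itgb5, chr16:33829415-33829664, plus strand: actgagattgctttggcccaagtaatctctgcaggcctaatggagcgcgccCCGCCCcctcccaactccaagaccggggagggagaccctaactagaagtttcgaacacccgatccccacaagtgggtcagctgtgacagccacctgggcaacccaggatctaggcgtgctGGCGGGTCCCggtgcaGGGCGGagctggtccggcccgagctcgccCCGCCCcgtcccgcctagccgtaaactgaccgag
Itga5, chr15:103366792-103367041, minus strand: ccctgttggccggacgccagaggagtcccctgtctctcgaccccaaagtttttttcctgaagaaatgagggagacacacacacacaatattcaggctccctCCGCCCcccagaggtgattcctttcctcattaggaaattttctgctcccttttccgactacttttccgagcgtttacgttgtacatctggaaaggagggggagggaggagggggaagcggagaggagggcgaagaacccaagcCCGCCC
Itgav, chr2:83724147-83724396, plus strand: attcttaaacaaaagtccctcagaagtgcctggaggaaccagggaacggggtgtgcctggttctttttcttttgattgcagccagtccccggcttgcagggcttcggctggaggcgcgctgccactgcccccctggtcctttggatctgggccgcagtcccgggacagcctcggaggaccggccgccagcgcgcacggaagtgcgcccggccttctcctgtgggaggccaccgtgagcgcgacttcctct

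Itgb5 held 3 GC boxes, with first bases at -199, -63 and -34 from the start, and 1 NF-kB-type match at -79, none of them overlapping. Itga5 held 2 GC boxes, at -149 and -6, and Itga1 and Itgav held none of the 5 motifs. The GC box occurs in 32.7% of the 32851 promoter stretches of the same length in the table, CCAAT in 33.8%, the TATA box in 12.4%, the AP-1 site in 4.46% and the NF-kB-type site in 17.6%. Among the 7 subunits 3 held a GC box, Itga5, Itgb1 and Itgb5, and none held a match to the CCAAT box, the TATA box or the AP-1 site. The 4 stretches shown had 55.6 to 65.2% G and C, against a median of 52.4% over all. Neither direction of change in co-culture went with one motif, as Itgb5 and Itga5 both held GC boxes and moved apart, and a match of letters is a description and not a binding site.

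The other integrin subunits, 17 in the list, had a probe set for 16, and 5 of them passed the filter. The levels of 3 of these, Itga3, Itgb7 and Itgb2, were highest in NIH3T3 cells. Itga3, a laminin receptor chain, read 1397 and 1237 in NIH3T3, 89.5 and 76.1 in OP9, 89.4 and 83.8 in co-culture and 132 and 129 in MC3T3 cells. Itgb7, known from lymphocytes that home to the gut, read 838 and 779.9 in NIH3T3, 71.6 and 77.5 in OP9, 79.6 and 80.7 in co-culture and 145 and 148 in MC3T3 cells. For both the NIH3T3 pair stood far above every other array, and OP9 cells lay 15.9-fold and 10.9-fold below it (adjusted p = 2.5e-08 and 1.1e-08, limma).

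Itgb2, the beta chain of leukocyte integrins, was also highest in NIH3T3 cells, at 333 and 312, with 140.4 and 125 in OP9, 106 and 98.5 in co-culture and 46.9 and 34.2 in MC3T3 cells. Itgb8, a partner of alpha v, was at 7.4 to 8.2 on the 4 OP9 and co-culture arrays, 46.3 and 105 in NIH3T3 and 114 and 92.2 in MC3T3 cells. OP9 cells were thus at the bottom of the scale for 1 of the partners of alpha v and highest for the pair Itgb3 and Itgb5. Itga2b, the platelet chain, read 213 and 187 in OP9, 295 and 318 in co-culture, 258 and 248 in NIH3T3 and 176 and 181 in MC3T3 cells. Against NIH3T3 cells 4 of 5 were lower in OP9 cells, where 10.3% of all genes were. Against MC3T3 cells Itgb2 was higher and Itgb8 lower, where 10.5% of all genes were called higher and 9.41% lower. Itga3, Itgb7 and Itgb8 passed the filter through NIH3T3 and MC3T3 arrays alone, so that these counts are not read against the shares of all genes. In co-culture 0 of 5 were called with limma, where 5.67% of all genes were, and 2 had an unadjusted p under 0.05. Itga2b alone had an adjusted p under it (log2 0.62, adjusted p = 0.00101, limma), where 42.8% of all genes did. Itga4, the chain by which B cells bind Vcam1, was at 25.2 to 30.9 on all 8 arrays.

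**Figure D4:**
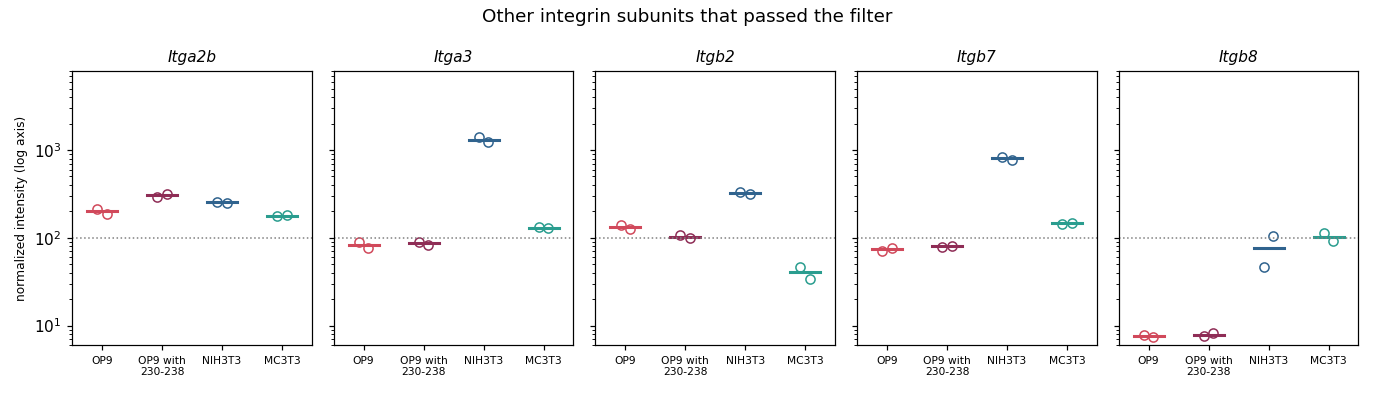
Normalized intensity (log axis) of the 5 other integrin subunits that passed the filter, in OP9, OP9 with 230-238, NIH3T3 and MC3T3 cells. Circles are arrays, bars the mean of the 2 arrays of a group, and the dotted line the level of 100. Itga3 and Itgb7 stand highest in NIH3T3, and Itgb8 is below 10 in both OP9 groups.

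The ligands of these receptors were read from lists. Of 12 tested RGD-type and matricellular ligands, 1 rose and 4 fell in co-culture, where 2.71% of all genes were called higher and 2.97% lower. Npnt, encoding nephronectin, the ligand of the alpha 8 chain, was at 525 and 629 in OP9, 46.8 and 64.7 in co-culture, 9.1 and 8.9 in NIH3T3 and 10.6 and 11.7 in MC3T3 cells. It fell 10.4-fold in co-culture (adjusted p = 6.4e-06, limma), and it was near the bottom of the scale in MC3T3, the line with the highest Itga8. Npnt passed the filter through the OP9 arrays alone and so had to be high there. The counts of this list in comparisons with OP9 are therefore not read against the shares of all genes. Tnc and Postn, encoding tenascin C and periostin, matrix proteins bound by alpha v and other chains, fell 9.56-fold and 6.93-fold (adjusted p = 6.7e-07 and 1.0e-05, limma).

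Mfge8, encoding the lactadherin that ties alpha v beta 3 and alpha v beta 5 to dying cells, was the 1 ligand of this list that rose, 4.56-fold (adjusted p = 1.3e-06, limma), from 1673 and 1712 to 7885 and 7564. It is named after its values were seen. The median of the 12 was log2 -0.55 against -0.053 over all genes. In OP9 against NIH3T3 cells 7 of 12 were higher and 0 lower, where 20.5% of all genes were called higher and 10.3% lower, among them Npnt (64.1-fold), Edil3 (51.0-fold) and Thbs1 (31.7-fold), with a median of log2 1.82 against 0.16. These 3 read 8.9 to 24.3 in NIH3T3 cells, at the bottom of the scale, so that the size and order of their folds depend on the background of the array. Against MC3T3 cells 6 were higher, where 10.5% of all genes were, among them Npnt (51.6-fold), Ccn2 (14.5-fold) and Thbs1 (8.21-fold), and 1 was lower, Postn.

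Of 10 collagens, the ligands of Itga1, 1 fell in co-culture, where 2.97% of all genes were called lower. It was Col4a1 of the basement membrane, by 2.41-fold (adjusted p = 4.5e-04, limma). Against NIH3T3 cells 8 of 10 were higher in OP9 cells and 0 lower, where 20.5% of all genes were called higher and 10.3% lower, with Col4a1 105-fold, Col4a2 68.7-fold and Col6a2 17.6-fold above. Col4a1 and Col4a2 read 19.9 to 29.5 in NIH3T3 cells, again at the bottom of the scale, where a fold depends on background. Against MC3T3 cells 7 of 10 were higher, where 10.5% of all genes were, among them Col6a2 (8.81-fold), Col6a1 (6.87-fold) and Col6a3 (5.40-fold). Of 5 tested laminin chains, the ligands of Itga6, 1 was higher and 2 were lower in OP9 than in NIH3T3 cells. Among all genes 20.5% were called higher and 10.3% lower. Lama4 in OP9 exceeded NIH3T3 cells by 14.8-fold, while Lama5 was 12.3-fold and Lamc1 2.49-fold lower. Lama4 read 30.1 and 23.3 in NIH3T3 cells, at the bottom of the scale as well. Against MC3T3 cells 1 of the 5 was called, Lama5, 2.14-fold higher, where 10.5% of all genes were called higher. In co-culture 0 of the 5 were called with limma, where 5.67% of all genes were, while 4 had an unadjusted p under 0.05. Without the minimum fold 3 of the 5 passed at the adjusted p, where 42.8% of all genes passed.

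Ligands of the immunoglobulin type serve integrins on blood cells. In co-culture 1 of 4 tested rose, Icam1, where 2.71% of all genes were called higher. Icam1, the ligand of leukocyte integrins with the beta 2 chain, went from 305 and 298 to 2158 and 2044 (6.97-fold, adjusted p = 0.00169, limma). Vcam1 was at 3130.5 and 3149 in OP9 and 3224 and 3214 in co-culture (log2 0.036, adjusted p = 0.733, limma). All 4 were higher in OP9 than in NIH3T3 cells, where 20.5% of all genes were. Against MC3T3 cells 2 of 4 were higher, Icam1 and Jam2, where 10.5% of all genes were. Icam1 and Jam2 read below the array medians on every NIH3T3 and MC3T3 array, near the bottom of the scale. Both passed the filter through OP9 and co-culture arrays alone. The counts of this list against NIH3T3 and MC3T3 cells are therefore not read against the shares of all genes.

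Inside the cell the list of 28 tested activators and actin linkers had 1 call in co-culture, Tln2, encoding a talin, at 714 and 679 in OP9 and 164 and 187 in co-culture (3.97-fold lower, adjusted p = 1.0e-05, limma), where 5.67% of all genes were called. The median of the list was log2 -0.12. In OP9 against NIH3T3 cells 4 were higher and 3 lower, where 30.8% of all genes were called, with Tes 9.12-fold lower, Tgfb1i1, encoding the paxillin relative Hic-5, 7.09-fold higher and Tns2 3.71-fold lower. Against MC3T3 cells 2 of 28 were higher and 1 lower, where 19.9% of all genes were called. Tns1 (12.2-fold) and Tln2 (4.03-fold) were higher and Tes (2.40-fold) lower. Tns1 read 70.3 and 63.4 in MC3T3 cells, below the level of the filter. Of 7 inhibitors and adaptors of integrin uptake, 0 were called in co-culture with limma, with 6 at an unadjusted p under 0.05. Without the minimum fold 4 of the 7 passed at the adjusted p, where 42.8% of all genes passed. In OP9 cells Kank1 was 6.97-fold higher than in NIH3T3 and Dok1 2.02-fold higher than in MC3T3 cells. Each was the 1 of 7 called in its comparison, where 30.8% and 19.9% of all genes were called. Kank1 read 42.5 and 50.5 in NIH3T3 cells, near the array medians.

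Membrane proteins that sit beside integrins showed 3 calls of 10 in co-culture, where 5.67% of all genes were called. Cav1, the coat protein of caveolae, fell 4.69-fold from 1666 and 1629 to 358 and 345 (adjusted p = 8.0e-07, limma). The tetraspanin Cd82 rose 4.47-fold (adjusted p = 5.4e-04, limma), and Cd47, a partner of alpha v beta 3, rose 3.18-fold from 1230.3 and 1175 to 3942 and 3714 (adjusted p = 6.4e-06, limma). In OP9 against NIH3T3 cells 1 of 10, Cd82, was higher and 5 were lower, where 20.5% and 10.3% of all genes were. Cav1 (4.89-fold) and Cd9 (4.32-fold) stood in front of the lower ones. Against MC3T3 cells 0 of 10 were higher and 3 lower, where 10.5% and 9.41% of all genes were. The 3 were Cd9, Cav1 and Cd82, by 3.70-fold, 3.59-fold and 3.47-fold. Between MC3T3 and NIH3T3 cells, Postn (58.9-fold), Cd82 (27.5-fold), Edil3 (23.8-fold), Col4a1 (19.7-fold) and Lama4 (18.9-fold) were higher and Lama5 (26.3-fold) and Ccn2 (18.1-fold) lower in MC3T3 cells. The 5 that were higher read 12.3 to 56.6 in NIH3T3 cells, near the background of the array.

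**Figure D5:**
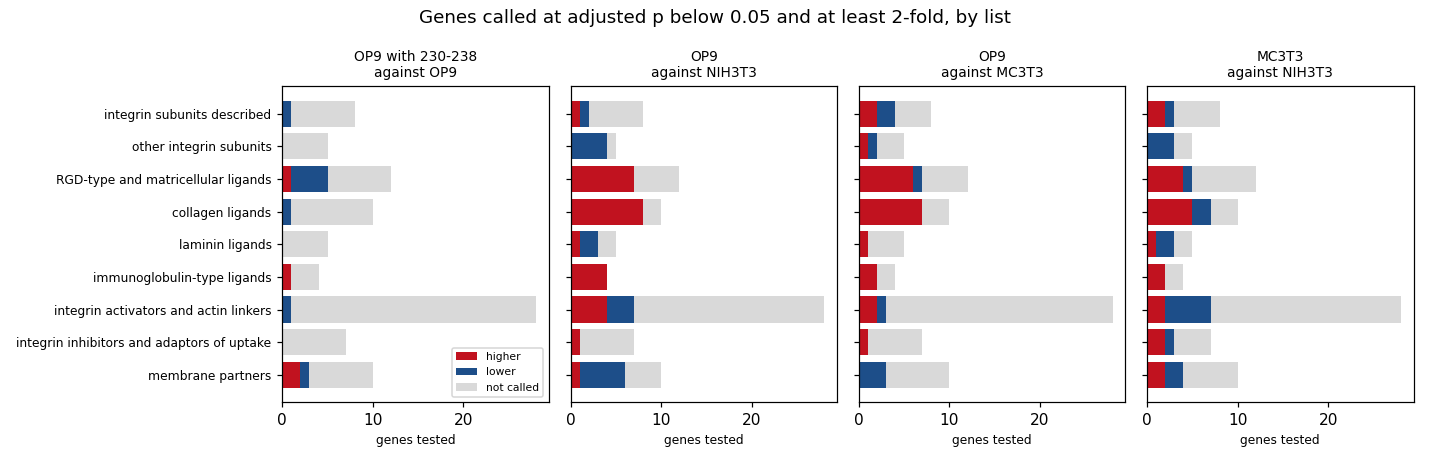
Number of tested genes per list that were called higher (red), called lower (blue) or not called (grey) in the group named first, in 4 comparisons. The first bar holds the 8 integrin subunits described. Ligand lists carry red bars in OP9 against NIH3T3 and against MC3T3, and most bars of the co-culture panel are grey.

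Markers of other cells were read beside these results. Of 8 leukocyte markers, 8 had a probe set, and their summed level was 253 to 256 in OP9 and 501 to 517 in co-culture, with Coro1a at 116 and 125 and Laptm5 at 105 and 100.1 after co-culture. Ptprc, the pan-leukocyte marker, was at 8.9 and 8.6 in OP9 and 34.6 and 31.1 in co-culture. For 10 pre-B cell markers with a probe set the sum, mostly Ebf1, was 2359 to 2604 in OP9 and 1861 to 2098 in co-culture, with Vpreb1 at 25.8 and 21.6 against 77.7 and 76.0. The part of remaining pre-B cells in the co-culture differences, Icam1, Cd47 and Cd82 included, was not tested. Of 9 markers of marrow stroma and fat cells 8 averaged 100 or more in OP9 cells. In co-culture 4 of 8 tested fell, where 2.97% of all genes were called lower. The sums of the 9 were 64466 to 65880.1 in OP9 and 41671 to 41792 in co-culture. Of 6 measured osteoblast markers 2 reached a mean of 100 in MC3T3 cells, Dmp1 and Col1a1, and also 2 in OP9 and in NIH3T3 cells, Phex and Col1a1, so that this count does not set the osteoblast-like line apart. Dmp1 read 969.7 and 1142 in MC3T3 and 10.7 to 61.9 on the other 6 arrays, while Col1a1 was lower in MC3T3, at 2239 and 2200.3, than on any other array. Of 8 fibroblast markers 6 averaged 100 or more in NIH3T3 and in co-cultured cells and 7 in OP9 and in MC3T3 cells, so that they do not mark out NIH3T3 either.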

How the data were processed

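RNA of 4 groups of stromal cells was measured on 8 arrays. The values deposited by the authors are normalized intensities, linear and not logged, of 45101 probe sets. The study's methods name RMA Express, affylmGUI and dChip, and do not say which program, run over which arrays, produced the deposited values. Normalization between arrays sets the overall level, so that changes are relative to the other genes of an array.

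Names came from the platform annotation, with 1 symbol for 34958 probe sets, several for 932, which were not named, and none for 9211. The log2 of each value was taken without a pseudocount. Group means of all 8 arrays were fitted with lmFit and eBayes of limma 3.58.1 in R 4.3.3, with 4 residual degrees of freedom, with Benjamini-Hochberg adjustment over 10084 genes. Groups came from the sample labels. The fit was tested on simulated data. The number of arrays limits the precision.

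The subunits, the gene lists and the rule for naming genes were chosen with earlier results of these data known. The text names all 10 subunits, the other subunits that passed the filter, and of each further list at most 3 called genes with the largest fold in a comparison, with exceptions said in the text. Members of marker lists, and Vcam1 and Itga4 as the receptor pair of B cells and stroma, were named for their role. Neighbouring groups in the order of a gene were tested with 2 further contrasts, of co-culture with NIH3T3 and with MC3T3.

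The settings varied were the filter (none, or 200), the scaling (quantile or median), a pseudocount of 16, the probe set of a gene (mean of all, without _x_at and _s_at, or each singly), the arrays fitted (the 2 groups compared, or all but 1), the prior of eBayes (trend and robust), a replicate block and the minimum fold (none). Arrays with the same replicate number were checked for shared deviations. No array was left out.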

Additional observations from a re-analysis of the deposited data

How the results depend on the processing

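Single differences of the 8 tested subunits in 4 comparisons were recomputed in 616 alternatives, of which 581 kept their direction and side of the threshold, 22 were newly called, 5 lost the call and 8 turned sign. Alternatives in which a gene failed the filter are not among the 616. The 5 therefore leave out calls of Itga1, Itga5 and Itga8 that were lost in this way. The sign turned for Itgav and Itgb3 in MC3T3 against NIH3T3 cells, both near 0. Itgav, at log2 -0.037, gave 0.050 with median scaling, 0.13 with the mean of its probe sets, 0.43 with 1421198_at, 0.50 with 1432296_a_at and -0.11 to 0.033 when an array was left out, the last without NIH3T3 replicate 2. Itgb3, at log2 0.036, gave -0.099 with quantile normalization and -0.065 to 0.14 when an array was left out, below 0 without NIH3T3 replicate 1 and without MC3T3 replicate 1.

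The number of subunits called in co-culture was 1, and it was 0 with the filter at 200 and with the mean of the probe sets, where Itga1 was not kept, 6 with no minimum fold and 0 to 1 when an array was left out, 0 without OP9 replicate 1 or 2. In OP9 against NIH3T3 cells it was 2, and it was 1 with the filter at 200, without _x_at and _s_at probe sets and where every probe set of a gene had to be called, 0 with the mean of the probe sets, 8 with no minimum fold and 1 to 2 when an array was left out. In OP9 against MC3T3 cells it was 4, and 8 with no minimum fold, and in MC3T3 against NIH3T3 cells 3, and 5 with no minimum fold. In the former Itga1 was not kept with the filter at 200 or with the mean of the probe sets. In the latter Itga5 was not kept with that mean. It was not called there without _x_at and _s_at probe sets (log2 -0.82), or where every probe set had to be called. With no filter, quantile normalization, the pseudocount, the trend and robust prior and the 2 groups compared alone, the counts of the 4 comparisons were the same. Median scaling added Itgb5 as higher in OP9 than in NIH3T3 cells (log2 1.004).

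Deviations of arrays with the same replicate number correlated between -0.00385 and 0.181 over genes, with 1 of 6 pairs of groups over 0.1, so that the numbers were not taken as pairs. With the replicate number as a block the counts were 1, 2, 4 and 3, the same as without it, and over all genes 572 were called in co-culture in both fits. Levels near the bottom of the scale limit Itga1 outside OP9, Itga8 outside MC3T3 and Itga7 in every group.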
